A study of Homo sapiens with 18 samples.

Results

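FAT1 and MTNR1A lie next to each other near the end of the long arm of chromosome 4, at 4q35. Accessibility there was followed in 51 windows of 1 kb, out of 89428 windows in the deposited table, which cover part of a region of 3 Mb on chromosome 4 of GRCh37 (hg19), the first starting at 186603300 and the last ending at 189327700. By GENCODE release 44 mapped to GRCh37, 11 of the 51 windows overlapped FAT1 or the 1 kb before its start, 1 overlapped MTNR1A, and the other 39 belonged to neither gene. Both genes were selected on the PEA1 and PEA2 values, because the resistant line PEA2 held almost no reads there, so the PEA1 and PEA2 values of these windows are given as a description without a test.

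ATAC-seq, in which the Tn5 transposase cuts and tags open chromatin, was carried out on 6 cell lines of human ovarian cancer, in 3 libraries per line. A2780, PEA1 and PEO1 are labelled as platinum-sensitive, and their resistant counterparts are CP70, PEA2 and PEO4. CP70 was selected from A2780 in culture, whereas the sensitive and resistant lines of the PEA and of the PEO pair each came from 1 patient before and after resistance. No drug exposure of the cells is named in the labels of these libraries.

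Each group is 1 cell line, and the labels do not say whether the 3 libraries of a line came from separate cultures, so p-values measure only the spread between these libraries. The implied depth per library ran from 8963079 reads in PEO1 to 60435027 in A2780, and was 17282880 to 22514948 reads in the 3 PEA2 libraries. The mean share of reads that fell in the table ranged from 9.26% in A2780 to 39.9% in PEO1, and the deposited FPKM carries this difference between the lines. Of the epithelial marker genes, 6 of 7 had a window over their start, against 1 of 4 leukocyte, 0 of 3 fibroblast and 0 of 2 endothelial markers. The endothelial marker PECAM1 had no start in the annotation used, so it could not have a window. The leukocyte marker with a window was CD14. A window could enter the table through as few as 2 libraries, so these counts do not describe each line. The 6 epithelial start windows were at 0.610 to 0.898 FPKM in A2780, 1.27 to 2.47 in PEA2 and 3.03 to 11.3 in PEO1. CD14 was at 0.590 FPKM in A2780, 3.8 in PEA2 and 5.7 in PEO1. In PEA2 CD14 thus lay above all 6 epithelial windows.

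FAT1 encodes a very large atypical cadherin of the cell surface, related to the Drosophila tumour suppressor Fat, and it is linked to cell polarity and to the Hippo kinase pathway that restrains the coactivators YAP1 and WWTR1. It is often mutated or deleted in human carcinomas. MTNR1A encodes the melatonin receptor type 1A, a G protein-coupled receptor that lowers cyclic AMP when it binds melatonin. Both genes are on the minus strand. FAT1 runs from 187647876 down to 187508948 and MTNR1A from 187476721 down to 187447946.

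FAT1 has more than 1 annotated transcription start. The canonical transcript starts at 187645010, inside the window from 187644600 to 187645600, and a longer 5′ transcript starts 2866 bp upstream at 187647876, inside the window from 187647300 to 187648300. The window over the upstream start had the highest mean of the FAT1 windows. The MTNR1A window, from 187475400 to 187476400, ends 321 bp before the MTNR1A start. It covers the last 65 coding bases of exon 1 and the beginning of intron 1, and it also overlaps a readthrough gene annotated as ENSG00000272297. The 250 bases before each start, and the exon 1 edge that the MTNR1A window contains, are printed from GRCh37 on the minus strand, 5′ to 3′. The FAT1 sequences and the exon 1 edge lie inside windows of the table. The MTNR1A start sequence lies in no window, so no reads were available for it. In the first 3 sequences capitals mark GC box (GGGCGG), cyclic AMP response element (TGACGTCA), CCAAT box (CCAAT) or TATA box (TATAAA) matches, searched on both strands. In the last, capitals mark coding bases.
FAT1 upstream start, chr4:187647877-187648126: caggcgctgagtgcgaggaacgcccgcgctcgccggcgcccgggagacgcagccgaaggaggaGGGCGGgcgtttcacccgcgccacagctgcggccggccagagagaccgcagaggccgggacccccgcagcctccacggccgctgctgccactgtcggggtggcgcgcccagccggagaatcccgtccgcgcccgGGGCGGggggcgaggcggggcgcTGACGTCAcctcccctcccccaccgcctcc
FAT1 canonical start, chr4:187645011-187645260: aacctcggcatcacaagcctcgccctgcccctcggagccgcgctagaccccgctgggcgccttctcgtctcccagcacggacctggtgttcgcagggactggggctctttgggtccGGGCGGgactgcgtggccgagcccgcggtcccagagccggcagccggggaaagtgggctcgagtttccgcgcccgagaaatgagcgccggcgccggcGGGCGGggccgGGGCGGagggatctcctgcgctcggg
MTNR1A start, chr4:187476722-187476971: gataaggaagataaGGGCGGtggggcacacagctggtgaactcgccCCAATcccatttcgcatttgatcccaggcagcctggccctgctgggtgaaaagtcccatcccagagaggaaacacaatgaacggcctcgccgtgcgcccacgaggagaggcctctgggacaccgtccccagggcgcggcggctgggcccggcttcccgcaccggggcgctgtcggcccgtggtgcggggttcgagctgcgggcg
MTNR1A exon 1 edge, chr4:187476201-187476400: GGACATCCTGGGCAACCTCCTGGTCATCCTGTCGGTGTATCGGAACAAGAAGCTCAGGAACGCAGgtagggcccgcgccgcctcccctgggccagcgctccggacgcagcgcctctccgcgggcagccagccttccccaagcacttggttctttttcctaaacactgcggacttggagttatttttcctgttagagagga

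Both FAT1 starts lay in GC-rich sequence. The 250 bases before the upstream start had 78.8% GC and 36 CpG, and those before the canonical start 74% GC and 32 CpG, against medians of 63.2% and 18 over 19855 protein-coding genes. The MTNR1A sequence had 67.6% GC and 22 CpG. The upstream FAT1 sequence held 2 GC box matches and 1 cyclic AMP response element, the canonical FAT1 sequence 3 GC boxes, and the MTNR1A sequence 1 GC box and 1 CCAAT match. None of the 3 held the TATA box letters. Of all such sequences, 59.17% held the GC box, 2.397% the cyclic AMP response element, 34.28% the CCAAT box and 9.262% the TATA box.

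The first comparison asked how far the stretch without reads extended in PEA2. In this line 27 consecutive windows of the table held at most 3 reads in the 3 libraries together, from 187475400 to 188524000, a stretch of 1048.601 kb. All 11 FAT1 windows and the MTNR1A window were inside it. In 25 of the 27 windows not 1 read was counted in any PEA2 library. The other 2 windows, at the canonical FAT1 start and at 187646400 between the FAT1 starts, held 1 read each, both in replicate 1.

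**Figure D1:**
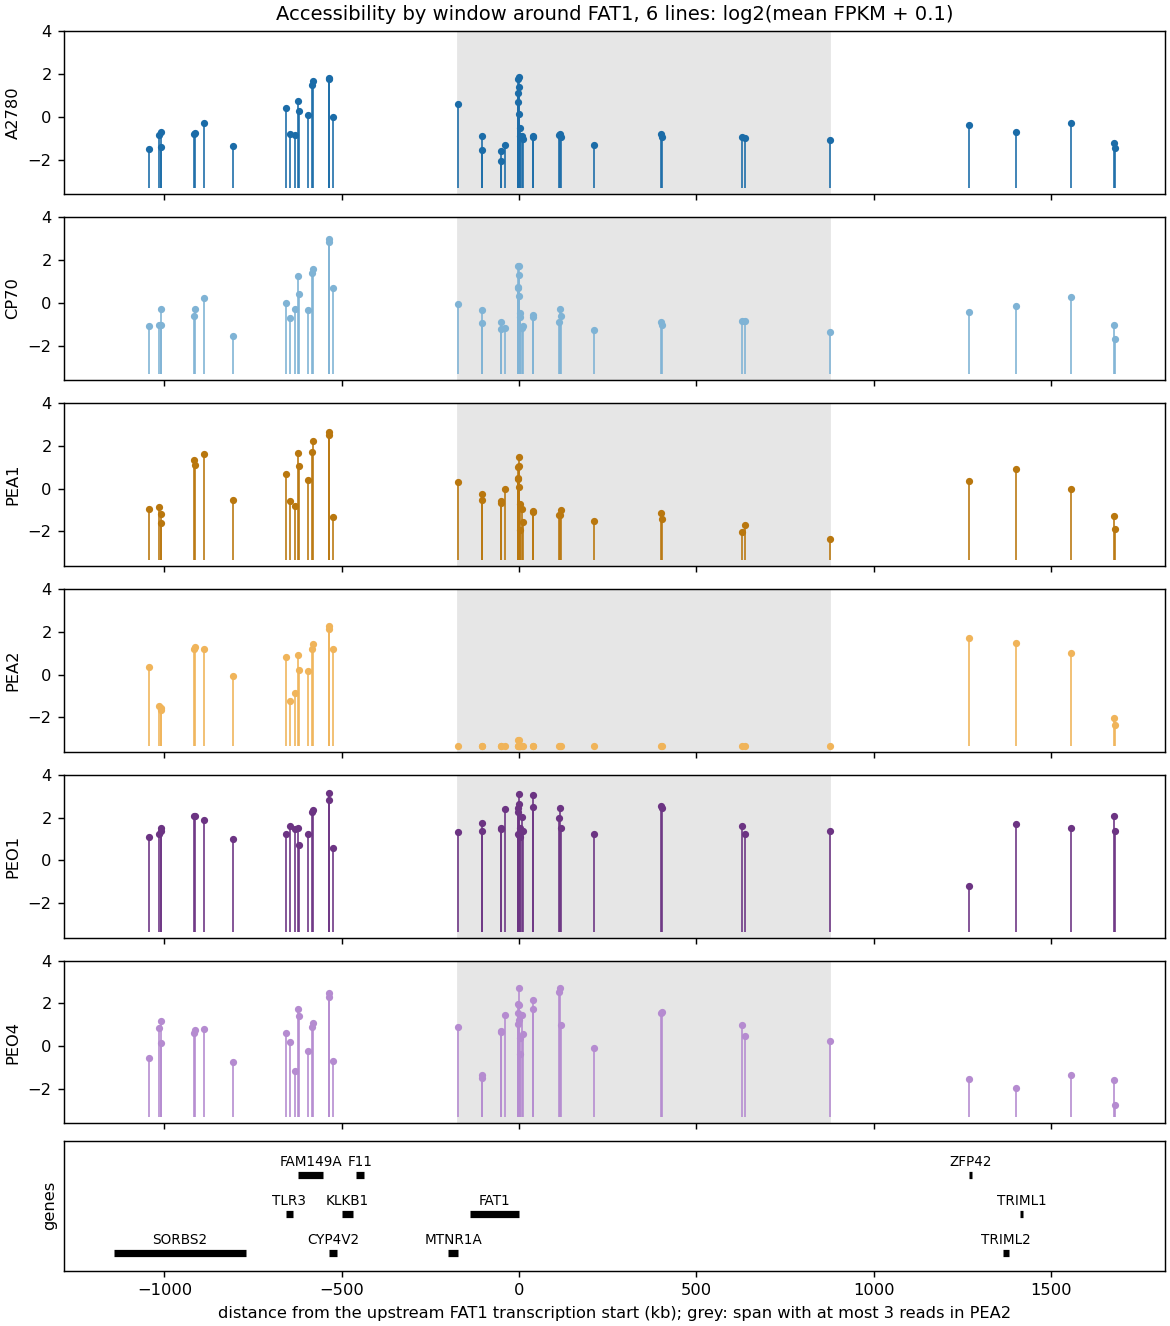
Accessibility as log2(mean FPKM + 0.1) over the 3 libraries of each line, for the 51 windows placed by their distance from the upstream FAT1 start in kb, with protein-coding genes drawn below. Grey marks the stretch with at most 3 reads per window in PEA2, where the 27 PEA2 points sit at the bottom of the axis while all other lines have signal.

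Summed over the 27 windows, PEA2 held 2, 0 and 0 reads in its 3 libraries. PEA1 held 646, 683 and 317 reads. At the PEA1 level 1106 reads would have been counted at the depth of the PEA2 libraries, so the PEA2 total was 0.181% of the PEA1 level (95% exact Poisson interval 0.0219 to 0.653%, counting error only). This interval and the later ones use the PEA2 reads that chose the stretch and take the PEA1 level as known. They are a description and no test. In the same windows the libraries held 1246, 1167 and 1310 reads in A2780 and 319, 372 and 542 in CP70. They held 1099, 1197 and 914 reads in PEO1 and 1175, 1365 and 1388 in PEO4. PEA2 was thus the only one of the 6 lines near 0 over the stretch, and the 3 PEA2 libraries lay far below every other library.

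The edges are known only to the distance between neighbouring windows of the table. The nearest window with PEA2 reads before the stretch was 187122600 to 187123600 in CYP4V2, which encodes a fatty acid hydroxylase mutated in a corneal and retinal dystrophy. It held 42, 35 and 52 reads in PEA2 and 9, 13 and 4 in PEA1. The nearest window after it was 188916300 to 188917300 over the start of ZFP42, a zinc-finger gene of pluripotent cells also called REX1, with 58, 54 and 73 reads in PEA2 and 34, 48 and 19 in PEA1. PEA2 was higher than PEA1 in both of these windows. The gaps without table windows were 351.799 kb on the CYP4V2 side and 392.299 kb on the ZFP42 side, so the stretch without reads ended somewhere within these gaps and spanned less than 1792.699 kb.

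Between the first and the last window of the stretch, FAT1 was the only protein-coding gene that lay wholly inside, beside 11 long non-coding RNA genes, 1 miRNA gene and 2 processed pseudogenes. The single MTNR1A window is the first window inside. The 321 bp from its end to the MTNR1A start lie within the stretch but in no window. The part of MTNR1A before that window and most of the readthrough gene ENSG00000272297 lie in the gap on the CYP4V2 side, where PEA2 was not measured. KLKB1 and F11, which encode the clotting proteins prekallikrein and factor XI, lie in the gap on the CYP4V2 side with no window in the table, so their state in PEA2 was not measured. In ATAC-seq reads alone, closed chromatin and missing DNA cannot be told apart.

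Outside the stretch every one of the 24 windows held more than 3 PEA2 reads. Of the 19 windows before it, PEA2 was higher than PEA1 in 6 and lower in 13, with a median log2 ratio of -0.38 on the log2(FPKM + 0.1) scale. Of the 5 windows after it, PEA2 was higher in 3 and lower in 2, with a median of 0.57. Along the chromosome before the stretch, the start window of TLR3, a sensor of double-stranded RNA, held 25, 38 and 34 reads in PEA2 and 54, 46 and 28 in PEA1. The window over the FAM149A start at 187025400 held 35, 31 and 37 reads in PEA2 and 87, 121 and 54 in PEA1. The CYP4V2 start window at 187111800 held 100, 67 and 103 reads in PEA2 and 199, 211 and 111 in PEA1. Scaled to depth, the TLR3 window was at 1.69 ± 0.441 FPKM (SD, n = 3) in PEA2 and 1.502 ± 0.203 in PEA1, the FAM149A window at 1.79 ± 0.141 and 3.05 ± 0.632, and the CYP4V2 window at 4.65 ± 0.814 and 6.09 ± 0.673. None of these neighbouring starts was near 0 in PEA2. At SORBS2, which encodes a cytoskeletal adaptor, the windows at 186732000 and 186732900 held 26 to 73 reads per PEA2 library and 34 to 85 per PEA1 library.

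Windows at or near 0 were rare in PEA2. In all, 0.157% of windows held at most 3 reads in its 3 libraries, and 39 windows held none, of which 25 (64.1%) were these. The next longest run of such windows in PEA2 was 2. Long runs were not particular to PEA2, since PEO1 and PEO4 each held a run of 28 such windows elsewhere in the table. Among the other lines, PEO1 had 0.716% of its windows at or under this limit, CP70 0.39%, PEO4 0.112%, PEA1 0.0257% and A2780 0.00559%, and no window of the stretch was among them. Of the 51 windows, 1 was at or under the limit in another line, namely 189326700 in PEO4 with 0, 2 and 1 reads, beyond ZFP42. The PEA2 reads chose the stretch, so these shares are no test of it.

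Among the other windows of the table, 7569 held at most 25 reads in PEA1, a limit set after the values were seen. Of these, 12 (0.159%) held 0 reads in PEA2, and the median was 34 PEA2 reads. Inside the stretch 7 windows were that low in PEA1 and held 0 PEA2 reads. These counts use the values that chose the stretch and are a description.

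The second question was how open the FAT1 starts were in each line. At the upstream start the libraries held 180 to 188 reads in A2780 and 47, 50 and 69 in CP70. They held 99, 100 and 38 reads in PEA1 and 0, 0 and 0 in PEA2. They held 84, 101 and 73 reads in PEO1 and 115, 129 and 136 in PEO4. Every library outside PEA2 therefore held at least 38 reads, and no PEA2 library held any.

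Scaled to library depth, the upstream start was at 8.48 ± 0.338 FPKM (SD, n = 3) in PEO1, 6.55 ± 0.314 in PEO4, 3.49 ± 0.630 in A2780, 3.15 ± 0.361 in CP70, 2.70 ± 0.764 in PEA1 and 0 in PEA2. In this order PEO1 lay above PEO4 and PEO4 above A2780 without overlap of libraries, whereas A2780 overlapped CP70 and CP70 overlapped PEA1. With PEA2 set to the floor of 3 reads over the 3 libraries, the window was 52.3-fold lower in PEA2 than in PEA1. Over the 9 FAT1 windows with 0 PEA2 reads this ratio ran from 10.1 to 52.3. Such ratios follow from the floor chosen and are not confidence limits.

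**Figure D2:**
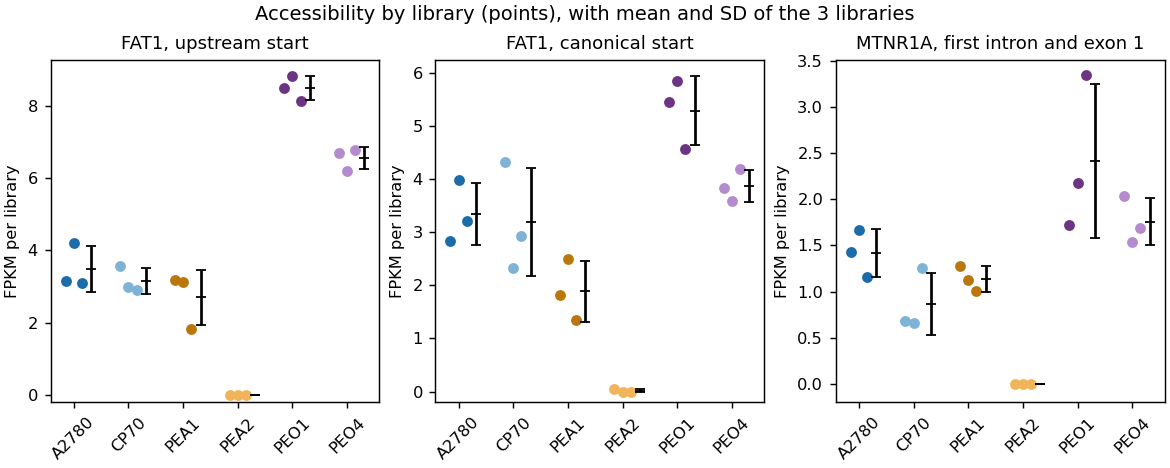
FPKM of each of the 18 libraries (points) with the mean and SD of each line (bars, n = 3) at the upstream FAT1 start, the canonical FAT1 start and the MTNR1A window, each on its own axis. PEA2 sits at or next to 0 in all 3 panels, and PEO1 has the highest mean in each.

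The canonical start showed a similar order. Its window held 163, 177 and 194 reads in A2780, 57, 39 and 70 in CP70, and 57, 80 and 28 in PEA1. PEA2 held 1, 0 and 0 reads. PEO1 held 54, 67 and 41 reads and PEO4 66, 75 and 84. The means were 5.29 ± 0.655 FPKM in PEO1, 3.87 ± 0.294 in PEO4, 3.35 ± 0.586 in A2780, 3.19 ± 1.02 in CP70 and 1.89 ± 0.577 in PEA1. PEO1 and PEO4 did not overlap, and from PEO4 down to PEA1 each line overlapped the next.

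The order of the lines depended on the scale. Divided by the median promoter window of the same library, the upstream start was at 1.71 ± 0.146 (SD, n = 3) in A2780, 1.17 ± 0.0135 in PEO1, 1.02 ± 0.108 in CP70, 0.920 ± 0.0964 in PEO4 and 0.841 ± 0.120 in PEA1. A2780 was then the highest line, and in the 5 lines with reads the upstream start lay close to or above the median promoter.

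The FAT1 windows fell into a group of 6 at the 2 starts and a group of 5 in the gene body. Over all 11, the PEA2 total of 2 reads stood against 781 at the PEA1 level, or 0.256% (95% exact Poisson interval 0.0310 to 0.925%). In PEO1 the body windows were at 2.47 to 5.16 FPKM, within the range of the start windows, and in PEO4 at 0.261 to 2.62. In A2780 they were at 0.143 to 0.434 FPKM, below every start window of that line. All 5 body windows were in the table through the PEO lines, 4 of them through PEO1 alone, so their high PEO1 values restate the limit of more than 2 FPKM in at least 2 libraries that every window met, whereas all 6 windows at the starts met it without PEO1. GC content was 33.966 to 46.853% in the 5 body windows and 42.058 to 66.933% in the 6 at the starts. Among all 11, 3 counted as CpG-rich (over 50% GC and an observed to expected CpG ratio over 0.6), all of them at the starts.

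**Figure D3:**
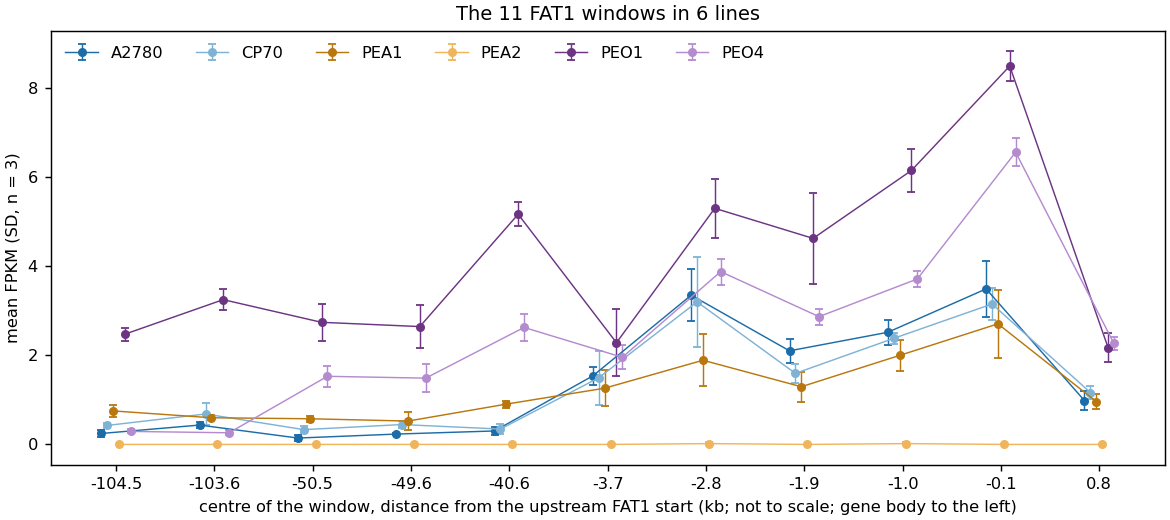
Mean FPKM with SD (n = 3) of the 11 FAT1 windows in the 6 lines, ordered by the distance of the window centre from the upstream start, which is not to scale. The highest point of PEO1, PEO4, A2780 and PEA1 is at the upstream start, PEO1 stays above 2 FPKM into the gene body, where 4 of the 5 windows met the table limit through PEO1 alone, and PEA2 lies along 0.

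MTNR1A, the melatonin receptor gene, had weaker signal. Its only window held 82, 74 and 70 reads in A2780 and 9, 11 and 30 in CP70. It held 40, 36 and 21 reads in PEA1 and 0, 0 and 0 in PEA2. PEO1 held 17, 25 and 30 reads and PEO4 35, 32 and 34. All lines but PEA2 thus had reads there, and CP70 replicate 3 held more than the other CP70 libraries.

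Scaled to depth, the MTNR1A window was at 2.42 ± 0.837 FPKM (SD, n = 3) in PEO1, 1.75 ± 0.255 in PEO4, 1.42 ± 0.255 in A2780, 1.14 ± 0.138 in PEA1, 0.866 ± 0.339 in CP70 and 0 in PEA2. Each line overlapped the next in this order as far as CP70. With PEA2 set to the floor of 3 reads, it was 22.0-fold lower than PEA1, and 66.0 reads would have been counted in PEA2 at the PEA1 level. The floor of 3 reads used for a count of 0 is thus 4.55% of that level (upper end of the 95% exact Poisson interval 5.59%). Relative to the median promoter window of its library MTNR1A was at 0.695 ± 0.0370 in A2780 and between 0.246 and 0.361 in CP70, PEA1, PEO1 and PEO4.

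The remaining 15 windows of the stretch lie beyond the FAT1 start, up to 875.62 kb from it, and 1 of them is in the non-coding gene LINC02492. PEA2 held 0 reads in all 15 against 259 at the PEA1 level. The floor of 3 reads is 1.16% of that level (upper end of the 95% exact Poisson interval 1.42%). Their median was 2.96 FPKM in PEO1 and 1.89 in PEO4, but only 0.452 in CP70, 0.422 in A2780 and 0.328 in PEA1. All 15 were in the table through the PEO lines, since 0 of them exceeded 2 FPKM in at least 2 libraries of the other lines, so the order of the lines restates the limit of the table.

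CP70 against A2780, a pair that played no part in the choice of the genes, asked whether culture-selected resistance went with a change at 4q35. Windows with a log2 fold change over 2 in size and a limma adjusted p under 0.001 counted as called. Of 15 windows tested in the 3 Mb, 0 were called, against 0.428% higher and 0.369% lower in CP70 over all 37128 windows tested. By edgeR 0 were called as well, and at an unadjusted p below 0.05 with the same fold limit limma also gave 0. At an adjusted p below 0.05 without the fold limit, 3 of the 15 were higher in CP70 and 1 was lower, against 47.5% higher and 2.29% lower over all windows. The 3 that rose were the CYP4V2 windows, at log2 fold changes of 1.14, 1.04 and 0.72, and the 1 that fell was the MTNR1A window.

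Of the 6 FAT1 windows tested, 0 passed in this pair by limma, 0 by edgeR and 0 at an unadjusted p below 0.05. On the log2 scale the upstream start differed by -0.13 (SE 0.284) with a limma adjusted p of 0.679, and the canonical start by -0.10 (SE 0.282) with a limma adjusted p of 0.770. The median window of the whole table rose by 0.59 in CP70, and 5 of the 6 FAT1 windows were lower in CP70 once each library was centred on its median. Counts after median centring, here and below, have no share over all windows beside them and describe only the windows named. With that centring the upstream start fell by 0.71 (limma adjusted p = 0.00259) and the canonical start by 0.67 (limma adjusted p = 0.00757). Both FAT1 starts thus missed the threshold per library read and were lower in CP70 relative to the typical window.

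MTNR1A fell in CP70 by 0.69 on the log2 scale (SE 0.275, limma adjusted p = 0.0290), with libraries that overlapped on the FPKM scale, and by 1.27 after median centring (limma adjusted p = 8.44e-04). The call did not hold with edgeR (-0.63, adjusted p = 0.0626). It was also lost when any of the 3 A2780 libraries, or CP70 replicate 1 or 2, was left out, with log2 fold changes of -0.97 to -0.55 over the 6 such fits.

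PEO4 against PEO1 asked the same of resistance that arose in a patient, again with values that did not choose the genes. Of 49 windows tested, 7 were called lower in PEO4 and 0 higher by limma, and the same counts came from edgeR and from an unadjusted p below 0.05 with the fold limit, against 5.78% lower and 2.72% higher over all 77654 windows tested. Of the 7, 2 were in the FAT1 gene body and 5 lay outside the stretch of PEA2, 4 of them beyond ZFP42 and 1 between TLR3 and FAM149A. At an adjusted p below 0.05 without the fold limit, 39 of the 49 were lower and 3 higher, against 45.8% lower and 21.9% higher over all windows. After median centring, which removes a whole-table median of -0.30, 27 were lower and 4 higher, with no share over all windows on that scale beside them.

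The table limit of more than 2 FPKM in at least 2 libraries bears on both directions in this pair. Over the whole table, 67.7% of the windows called lower in PEO4 and 80.4% of those called higher met it only through the PEO lines. Of the 7 called windows, 6 exceeded 2 FPKM in at least 2 libraries only through PEO1, as did the MTNR1A window. Among the 13 tested windows that met this limit without the PEO lines, a subset chosen after the data were seen, 1 was called lower and 0 higher, against 3.31% lower and 0.946% higher over all 43779 such windows. At an adjusted p below 0.05, 12 of these 13 were lower and 0 higher, against 41.3% lower and 21.1% higher. Both FAT1 starts were among the 13.

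The FAT1 windows called were 187542900, which overlaps a FAT1 exon, and its neighbour 187543800 in an intron. Their centres lie at -104.48 and -103.58 kb from the upstream start, where negative values point into the gene. The first held 26, 28 and 21 reads in PEO1 and 5, 7 and 5 in PEO4, a log2 difference of -2.72 (SE 0.323). The second held 32, 40 and 27 reads in PEO1 and 5, 4 and 6 in PEO4, a log2 difference of -3.23 (SE 0.309). All PEO4 libraries lay below all PEO1 libraries in both. These windows share 101 bases and are not independent. Both were in the table only through PEO1, so a high PEO1 value was a condition of their entry. Their calls are therefore a description and no test of a fall from PEO1.

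The other FAT1 windows moved less in PEO4. The remaining 3 body windows fell by 0.80, 0.80 and 0.95, and 4 of the 6 windows at the starts also passed as lower. The upstream start fell by 0.37 (SE 0.127, limma adjusted p = 0.0103) and the canonical start by 0.44 (SE 0.155, limma adjusted p = 0.0127). The call at the canonical start was lost without PEO1 replicate 2 (limma adjusted p = 0.0631) or PEO4 replicate 2 (limma adjusted p = 0.0534). After median centring these were -0.02 (limma adjusted p = 0.867) and -0.09 (limma adjusted p = 0.602), and 4 of the 11 FAT1 windows were lower, namely both called windows, the body window at 187606800 and the window at 187646400. MTNR1A was at -0.40 (SE 0.231, limma adjusted p = 0.126) in PEO4 and at -0.05 after median centring.

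**Figure D4:**
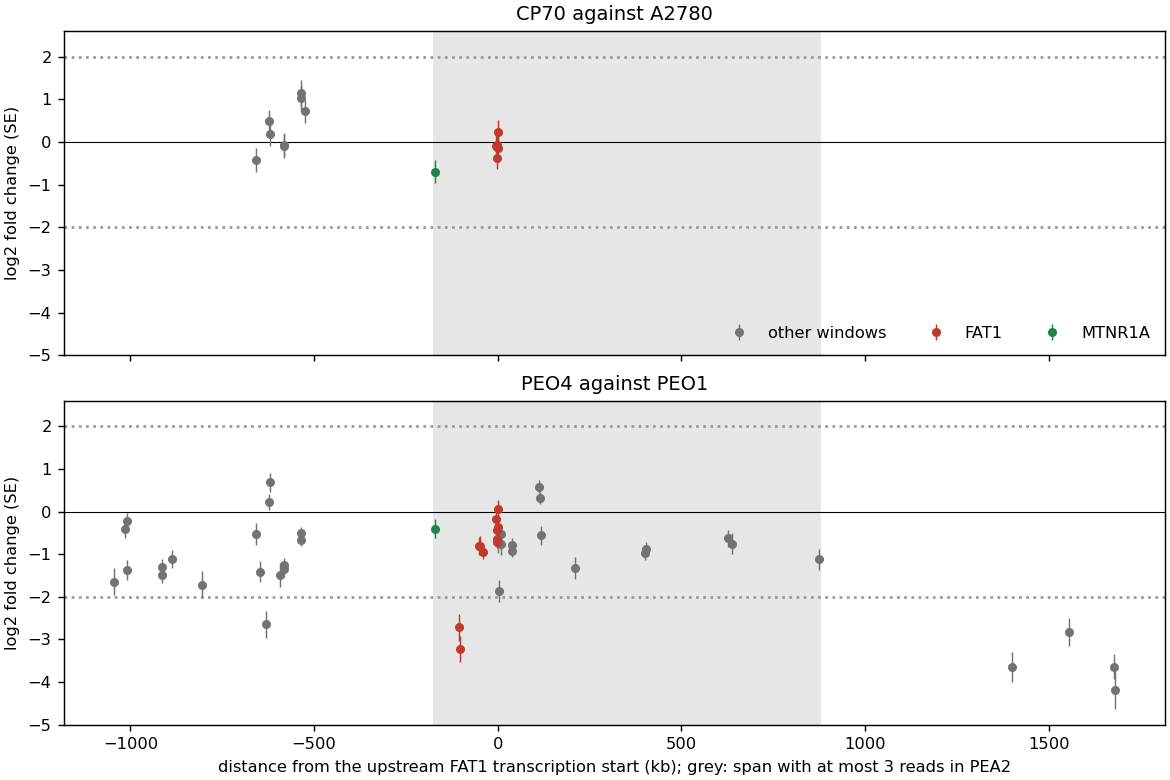
Log2 fold change with SE of the tested windows of the region in CP70 against A2780 and in PEO4 against PEO1, by distance from the upstream FAT1 start in kb, with the fold limit of 2 dotted and the PEA2 stretch in grey. No window of the A2780 pair reaches the dotted lines, while 2 FAT1 body windows and 5 windows outside the grey stretch lie below the lower line in the PEO pair.

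Beyond the FAT1 start, 13 of the 15 windows of the stretch passed as lower in PEO4 and 2 as higher. Over all windows tested 45.8% were lower and 21.9% higher. All 15 were in the table through the PEO lines, 8 of them only through PEO1, so these counts do not stand apart from the table limit. The 2 higher windows were neighbours 113.32 and 114.22 kb from the upstream start. The first held 47, 37 and 31 reads in PEO1 and 102, 119 and 109 in PEO4, a rise of 0.58 on the log2 scale (SE 0.158, limma adjusted p = 0.00142). The second held 59, 52 and 48 reads in PEO1 and 114, 133 and 136 in PEO4, a rise of 0.32 (SE 0.141, limma adjusted p = 0.0417). After median centring they were at 0.93 and 0.67, and 7 of the 15 were lower. In PEO4 this pair of windows, at 5.69 and 6.60 FPKM, was about as open as the upstream FAT1 start.

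The change at the upstream FAT1 start was also compared between these pairs. The PEO pair minus the A2780 pair gave -0.23 (SE 0.271, limma adjusted p = 0.490) as deposited and 0.44 (limma adjusted p = 0.143) after median centring, so no difference was shown and its sign turned with the scale. For MTNR1A the difference was 0.30 (SE 0.361, limma adjusted p = 0.512) as deposited and 0.97 (limma adjusted p = 0.0336) after median centring.

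FAT1 acts with its relatives and with the Hippo pathway, so 30 genes of that pathway were followed at their start windows, and 28 had a window in the table. In each of the 3 pairs 0 were called by limma or by edgeR at a log2 fold change past 2, also at an unadjusted p below 0.05. The counts that follow have no fold limit and an adjusted p below 0.05. The windows of these genes are compared with all windows in the table and with all protein-coding start windows.

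In CP70, 15 of 25 tested were higher and 0 lower than in A2780, with a median log2 fold change of 0.71 beside 0.59 over all windows and 0.58 over all start windows. Of all start windows 43.9% were higher and 1.48% lower. After median centring 5 were higher and 1 lower. CCN2, a secreted matricellular target of YAP1, rose by 1.79 (SE 0.253, limma adjusted p = 1.65e-10) and by 1.21 after centring. LATS1, the kinase that inactivates YAP1, rose by 1.37 (limma adjusted p = 1.93e-06), and YAP1 itself by 1.23 (limma adjusted p = 6.74e-04). After centring LATS1 rose by 0.79 (limma adjusted p = 0.0286) and YAP1 by 0.65 (limma adjusted p = 0.0146). The CP70 libraries were spread at LATS1, at 2.84 ± 1.82 FPKM (SD, n = 3). FAT3, a relative of FAT1, was at -0.27 and did not pass (limma adjusted p = 0.364), but fell by 0.85 after centring.

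The PEA pair chose FAT1 and MTNR1A but none of these genes. In PEA2, 2 of 28 were higher and 13 lower than in PEA1, with a median of -0.39. Over all windows 43% were higher and 21.4% lower with a median of 0.31, and over all start windows 17.6% were higher and 35.7% lower with a median of -0.23. After centring 2 were higher and 21 lower. Centring lowered every fold change in this pair, and start windows in general already had a lower median than all windows. No centred share over all start windows stands beside this count, so it is not read as particular to the list. The targets AXL, a receptor tyrosine kinase (-1.31, limma adjusted p = 6.99e-08), CCN1 (-1.25, limma adjusted p = 1.67e-07) and CCN2 (-1.12, limma adjusted p = 1.22e-05) were lower, and the target ANKRD1 was higher (1.53, limma adjusted p = 6.74e-10). TEAD3, which encodes a DNA-binding partner of YAP1, was lower by 1.12 (limma adjusted p = 2.81e-06) and its relative TEAD4 higher by 0.80 (limma adjusted p = 0.00120). Of the FAT family, FAT2, FAT3 and FAT4 did not pass, at -0.24, 0.28 and -0.43, while DCHS2, from the family of Fat ligands, fell by 0.98 (limma adjusted p = 9.09e-05). After centring FAT2 fell by 0.61 and FAT4 by 0.80. In PEA2 these FAT genes were at 3.15 to 5.43 FPKM, where the upstream FAT1 start was at 0.

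**Figure D5:**
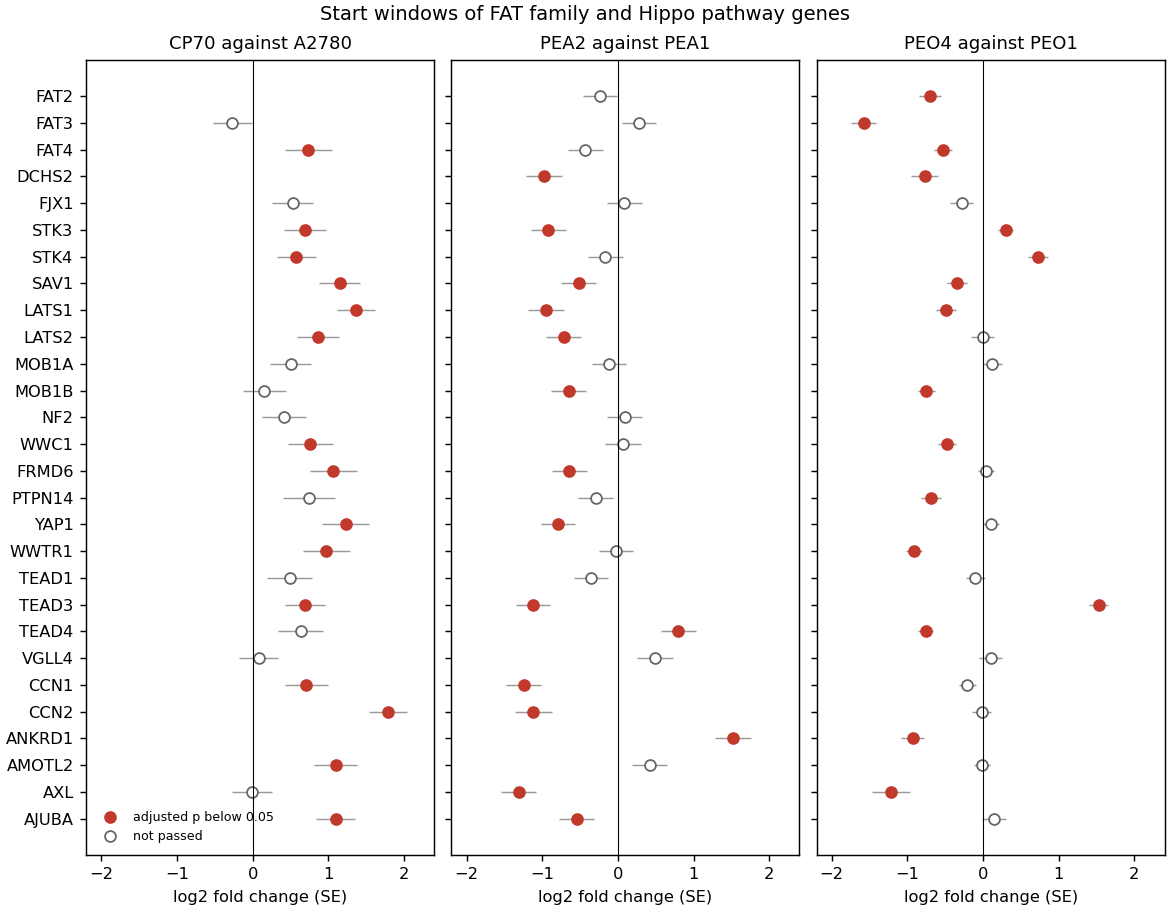
Log2 fold change with SE at the start windows of FAT family and Hippo pathway genes in the 3 pairs, with filled points where the limma adjusted p was below 0.05. Most points lie right of 0 in CP70 and left of 0 in PEA2, as do the whole-table median in CP70 and the median of all start windows in PEA2, and PEO4 has points on both sides.

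In PEO4, 3 of 27 were higher and 13 lower than in PEO1, with a median of -0.28 beside -0.30 over all windows and -0.02 over all start windows. Of all start windows 26.4% were higher and 30.9% lower. After centring 11 were higher and 9 lower. TEAD3 rose by 1.53 (SE 0.124, limma adjusted p = 2.89e-13) and the Hippo kinase gene STK4 by 0.73 (limma adjusted p = 8.27e-06). FAT3 fell by 1.58 (SE 0.164, limma adjusted p = 1.43e-10), FAT2 by 0.70 and FAT4 by 0.53, and FAT4 no longer passed after centring. NF2, the merlin gene upstream of the Hippo kinases, was not tested here because its start window held 2 reads in PEO1 and 0 in PEO4 over the 3 libraries, against 325 in PEA1 and 230 in PEA2.

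Of 7 genes of melatonin synthesis, reception and the clock, 4 had a start window. The other melatonin receptor gene MTNR1B, the related GPR50 and AANAT, the enzyme that makes the melatonin precursor from serotonin, had none. TPH1, which encodes a tryptophan hydroxylase of serotonin synthesis, was at 0.618 ± 0.0888 FPKM (SD, n = 3) in PEA1 and 2.24 ± 0.289 in PEA2, higher by 1.70 (limma adjusted p = 6.54e-10), and it fell by 0.93 in PEO4 (limma adjusted p = 0.00750). The clock gene CRY1 was lower by 0.68 in PEA2 (limma adjusted p = 0.00524) and PER1 higher by 0.85 (limma adjusted p = 7.57e-04), and PER1 rose by 0.74 in CP70 (limma adjusted p = 0.0149). TPH2 fell by 1.13 in PEO4 (limma adjusted p = 9.19e-05). After centring the changes of TPH1 in PEO4 and of PER1 in CP70 no longer passed.

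The pattern of the upstream FAT1 start over the 6 line means was set beside 12613 other protein-coding start windows, by Pearson's r of log2(FPKM + 0.1). Among the 5 most similar were MAML3 (r = 0.989), PCDHB2 (0.974), MUL1 (0.971) and KDM2B (0.970). With 6 points, of which PEA2 lies far from the others, r is a description of a low PEA2 value, and the points share depth and scaling. None of these 4 genes was at 0 in PEA2. Their PEA2 means were 0.212 to 1.18 FPKM, with 12 to 69 reads over the 3 libraries.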

How the data were processed

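Per the study's methods, duplicates were taken out with Picard, read pairs were mapped to hg19 by Bowtie2 with only unique alignments of up to 2 kb kept, and ENCODE blacklist and mitochondrial reads were dropped. The authors counted reads per window with featureCounts and deposited FPKM values from the rpkm function of edgeR. Versions, and any shift of read ends for the transposase, are not given in the sources used here. All windows have 1 length, so the FPKM deposited by the authors equal RPM up to a constant. Every window exceeded 2 FPKM in at least 2 libraries, so windows closed in nearly all libraries are not in the table. Unique alignment leaves repeated sequence without reads.

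Sample columns were matched to the labels by line and replicate number, and all 18 were used. In 18 of 18 libraries the FPKM steps gave whole reads (tolerance 0.01), from which reads and library totals were taken. Read numbers without molecular identifiers limit only counting error. Window coordinates are printed as deposited, counted from 1 with both ends included, 1 window every 900 bases, and matched GRCh37 at 23 of 23 chromosome steps. Replicate libraries differed by a chi-square per window of 1.07 to 2.10, and none were identical.

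Lines of a pair were compared with limma 3.58.1 in R 4.3.3 (edgeR 4.0.16 as an alternative on the recovered reads) on log2(FPKM + 0.1), over all windows with a mean above 1 FPKM in the 6 libraries of the pair, with Benjamini-Hochberg adjustment over all of them. The study weighted counts with voom, and here a mean-variance trend took that place. Fold changes on this scale understate those of low windows. A floor of 3 reads over the 3 libraries of a line was used where a line held none. Scripts were tested on simulated data. The windows named were those over the canonical start, the one with the highest mean and those called in a pair, with neighbouring genes by their start windows and, for likeness, the 5 start windows with the highest r, of which 1 is not reported here. The members, the FAT and Hippo, melatonin and cell type lists and the limits were chosen with earlier results of these data known. The alternatives were another pseudocount, filter, upper depth limit, scaling, tool, replicate block and each library left out.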

Additional observations from a re-analysis of the deposited data

How the results depend on the processing

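Depth limits small changes at these windows, and the floor of 3 reads limits how low PEA2 could be placed. The table holds only windows with signal in part of the lines, so the edges of the PEA2 stretch are coarse. Of the alternative values of the main results, 122 were kept. The rest were 13 counts or lengths that moved, 2 values that turned sign, 7 that no longer passed and 2 that newly passed. For single windows, kept means the same direction and side of the threshold. For counts it means only a number close to the main one. An example is the Hippo list in CP70, at 10 without A2780 replicate 2 against 15. The exceptions follow. The stretch of PEA2 was 876.7 kb when 0 reads were required, and 1049 kb under the 1% limit and without each PEA2 library. Windows called in PEO4 numbered 1 with a pseudocount of 1 and 0 with a minimum mean of 5 FPKM, and 6 to 7 with a library left out, and 1 among windows over the table limit without the PEO lines, a subset chosen after the data were seen. In CP70 they numbered 0 in every such fit. Median centring gave -0.71 (now passing) for the upstream FAT1 start in CP70, -0.025 (no longer passing) in PEO4 and 0.44 (sign turned) for their difference. Leaving out a library gave -0.22 to 0.0053 in CP70, where the value turned sign without A2780 replicate 2, then -0.40 to -0.33 in PEO4 and -0.37 to -0.14 for the difference. The canonical start in CP70 turned sign without A2780 replicate 2 (0.03) and without CP70 replicate 2 (0.10). MTNR1A in CP70 was -0.63 with edgeR (no longer passing) and -0.97 to -0.55 with a library left out. MTNR1A in PEO4 was -0.60 to -0.14, passing without PEO1 replicate 1. Of the Hippo list, CP70 counts were 6 with median centring, 3 with a minimum mean of 5 FPKM, 3 with the upper depth limit and 6 to 15 with a library left out, with 8 without A2780 replicate 1 and 6 without A2780 replicate 3. Under the same alternatives PEA2 counts were 23, 1, 7 and 11 to 18, and PEO4 counts 5 with the upper depth limit and 15 to 17 with a library left out. Windows that the minimum mean of 5 FPKM or the upper depth limit removed gave no value there, among them the upstream FAT1 start in CP70 under both. The cause of these differences was not tested.

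Replicate numbers paired the libraries at most weakly, since the correlation of same-numbered deviations ran from -0.158 to 0.0643. In the PEO pair each replicate matched its own number best, at 0.0240 to 0.0383. In the A2780 pair none did, and in the PEA pair only replicate 1 did. With the replicate number as a block, the upstream FAT1 start was -0.13 in CP70 and -0.37 in PEO4, MTNR1A -0.69 and -0.40, the calls in the region 0 and 7, and the list counts 11 in CP70, 14 in PEA2 and 18 in PEO4.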

Other observations

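At NF2, the merlin gene of the Hippo pathway, the start window on chromosome 22 from 29998800 to 29999800 held 2 reads over the 3 libraries of PEO1 and 0 in PEO4, against 538 in A2780, 236 in CP70, 325 in PEA1 and 230 in PEA2. This value was picked after it was seen, and its cause was not tested.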
